A study of Mus musculus with 6 samples.

Results

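The comparison described here set 2 arrays of cells treated with basic fibroblast growth factor (bFGF, also called FGF2) against 2 arrays of cells given vehicle, out of 6 arrays in the series. The other 2 arrays held cells treated with PD0325901, an inhibitor of the kinase MEK. Genes entered where a probe named by its RefSeq accession was well above background on all 6 arrays, which left 12327 of 16510 named genes. All cells were labelled primary Sertoli cells of C57BL/6J mice and were cultured in F12/DMEM at 34 °C. Every group, vehicle included, received insulin at 10 µg/ml, transferrin at 5 µg/ml and epidermal growth factor (EGF) at 5 ng/ml. So the bFGF groups were measured on top of another growth factor that signals through the same kinases. Treatment began on day 5 and lasted 24 h, with 20 ng bFGF (volume not given in the labels), 10 µM PD0325901 or vehicle. The labels give neither the age of the mice nor whether cells of several animals were pooled, and nothing says that the 2 arrays of a group came from separate cultures. The p-values therefore measure the spread between these arrays, which may be technical.

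Sertoli cells line the seminiferous tubule of the testis, where they feed the germ cells, seal the blood-testis barrier and release the ligands that keep spermatogonial stem cells. bFGF is a heparin-binding ligand that brings together FGF receptors on the cell surface, with heparan sulphate proteoglycans as co-receptors. The receptors then drive the RAS, RAF, MEK and ERK kinase cascade and the PI3 kinase and AKT branch. ERK raises immediate-early transcription factors within minutes and, more slowly, feedback inhibitors such as Sprouty proteins and dual-specificity phosphatases, so a measurement after 24 h reads a late state of the pathway.

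The labelled cell type was checked against its markers. On each of the 6 arrays, all 32 Sertoli genes that could be named read well above background, among them Sox9 and Wt1, transcription factors of the lineage. The summed Sertoli level, on the log2 scale relative to the 75th percentile of each array, was 9.97 and 9.97 with vehicle and 9.88 and 9.84 with bFGF. Markers of other testis cells were present at lower summed levels and are given with the gene groups beside which they moved.

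The arrays of each group lay on a slide of their own, so an effect of bFGF and one of the slide cannot be told apart in the results below. The bFGF arrays also read deeper. There, 75.9% and 75.6% of probes were well above background, against 66.0% and 66.6% on the vehicle arrays, although the 75th percentile of the signal was 1464 to 1613 on all 6 arrays. Of the 4183 named genes left out by the restriction, 1110 were well above background on both bFGF arrays and on no vehicle array, and 5 were so the other way round. Among the genes kept, the difference between the groups still followed the signal. In the dimmest decile of genes by mean signal the median difference, bFGF minus vehicle, was 0.31 on the log2 scale, and in the brightest decile it was -0.07. Cyclic loess, which levels such a trend, left 0.15 and 0.01. The part of this trend in the results was not tested beyond that scaling. Medians after cyclic loess are given beside those of some gene lists, but not for the niche, macrophage, matrix and stress lists. Some other lists are given by counts alone.

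**Figure D1:**
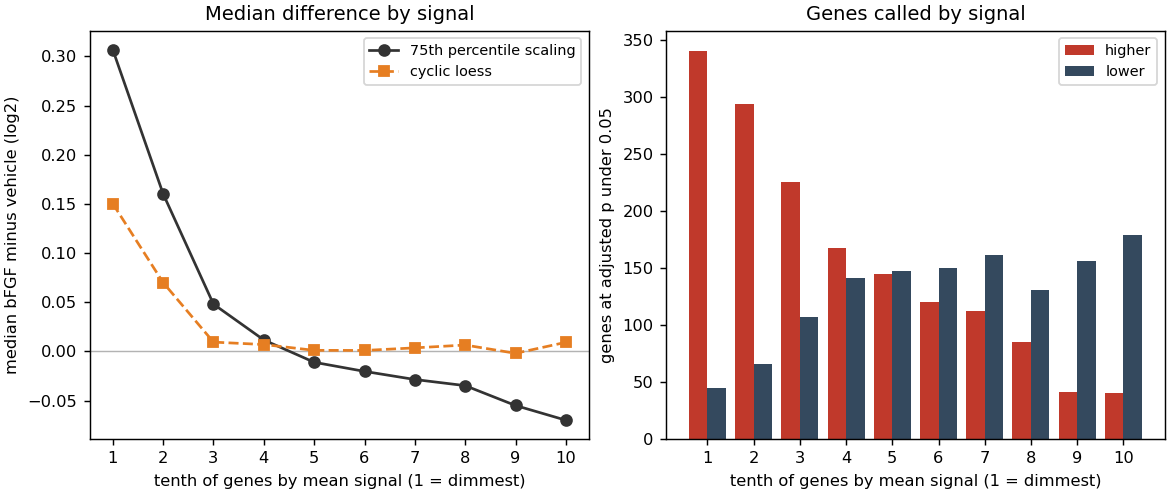
The left panel plots the median difference between bFGF and vehicle (log2) in each decile of genes by mean signal, from the dimmest (1) to the brightest (10), under both scalings. The right panel shows how many genes of each decile passed at an adjusted p under 0.05: 341 higher and 45 lower in the dimmest decile, 40 higher and 179 lower in the brightest.

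Small changes in many genes made up most of the difference between bFGF and vehicle. At an adjusted p under 0.05 (limma over all 6 arrays, Benjamini-Hochberg over 12327 genes), 2855 genes passed, which is 23.2% of those tested. Of these, 1572 were higher with bFGF (12.8%) and 1283 were lower (10.4%). Only 96 of the higher and 26 of the lower ones differed by 2-fold or more, and 58 of those 96 lay in the dimmest decile of genes. The median size of the difference was 0.13 on the log2 scale, against a median standard error (SE) of 0.06. For comparison, PD0325901 against the same vehicle arrays gave 7298 genes at the same threshold, with a median size of 0.27. Both bFGF arrays lay above both vehicle arrays for 32.7% of genes and below both for 33.3%, which is the background for groups of 2 arrays that do not overlap. Fewer genes passed when any 1 bFGF or vehicle array was left out. Such a fit has fewer residual degrees of freedom, so a lost call alone does not show that a difference rested on that array. The loss was largest without bFGF replicate 2, although each of these fits had the same residual degrees of freedom. How far the calls rest on that array was not tested further. With the 4 bFGF and vehicle arrays alone, 847 higher and 566 lower genes passed. Of the 2855 genes, all 2855 kept their direction without bFGF replicate 2. They had been picked on these same arrays, which nearly fixes that outcome, so it is no separate support. Of the 170 genes named by rule that passed, 72 passed in all of 16 other settings. These are called the stable genes below, a word for the call and not for the size of the difference, and 94 of the 170 lost their call without bFGF replicate 2. The counts of the gene lists below stand against these shares of all genes. Lists and members were chosen with earlier results of these data known, and Tubb2b, Irs1 and Ccl2 are counted in theirs. So the counts describe the lists and are no independent test.

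**Figure D2:**
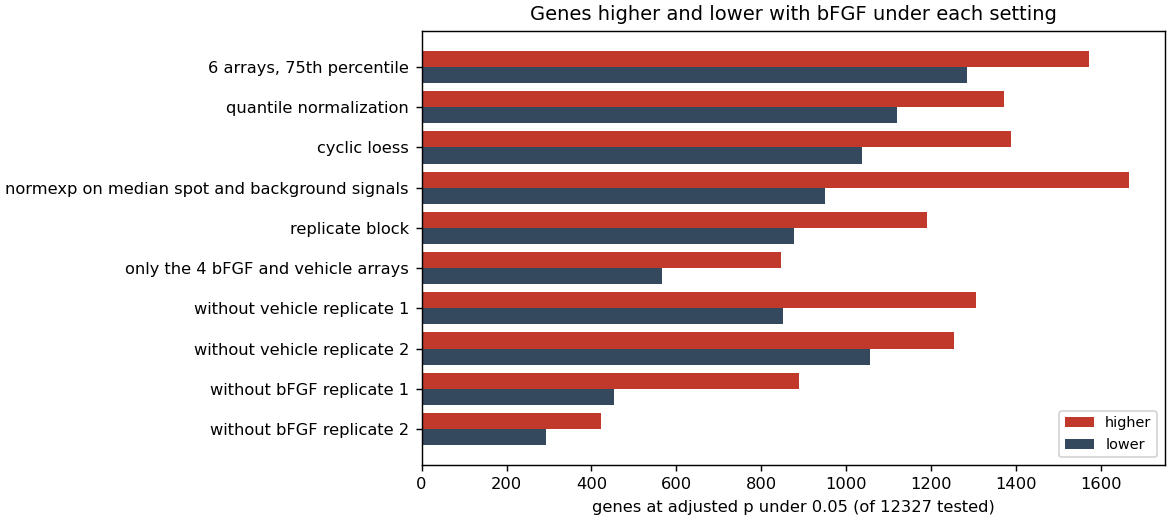
Bars show how many genes were higher or lower with bFGF at an adjusted p under 0.05, with all 6 arrays and under 9 other settings. The counts run from 1666 higher (normexp) down to 292 lower (without bFGF replicate 2).

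The largest fall among the 12327 genes tested was that of Tubb2b, a beta-tubulin typical of neurons and of cells that remodel their microtubules. Its level was 0.81 and 0.54 with vehicle and -1.27 and -1.39 with bFGF, on the log2 scale relative to the 75th percentile. The groups did not overlap, and the PD0325901 arrays, at 1.36 and 1.24, were higher than both. The difference, bFGF minus vehicle, was -2.01 ± 0.11 (SE, 2 arrays a group; limma adjusted p = 0.00326), a 4.01-fold lower signal. Grem1, a secreted antagonist of bone morphogenetic proteins (BMPs), fell by a similar factor. It was well above background on the vehicle arrays (-3.71 and -3.81) and the bFGF arrays (-5.88 and -5.84), but on neither PD0325901 array, and so fell outside the restriction to 6 arrays. With probes required above background on the 4 arrays compared, a rule added after the data were seen, its difference was -2.09 ± 0.09 (SE; limma adjusted p = 0.00331 over 12677 genes), or 4.27-fold lower.

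Irs1, the adaptor that carries the signal of the insulin and IGF1 receptors to PI3 kinase, was dim in all groups and fell further. It stood at -3.88 and -4.21 with vehicle and at -5.61 and -5.89 with bFGF, again without overlap. The fall of -1.70 ± 0.17 (SE; limma adjusted p = 0.00638) is a 3.26-fold lower signal in cells kept in insulin, but its size depended on the background correction: normexp on the median spot and background signals gave -0.87. Ccl2, the chemokine that draws monocytes, rose from 2.32 and 2.40 with vehicle to 3.33 and 3.38 with bFGF. Its difference was 0.99 ± 0.05 (SE; limma adjusted p = 0.00326), a 1.99-fold higher signal, and its 2 values within a group lay far closer together than the groups. In the PD0325901 cells the Ccl2 signal was 1.22 and 1.16, below vehicle. Tubb2b, Irs1 and Ccl2 were each measured by 1 probe and were all stable genes.

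Close relatives moved less. Tubb2a, whose transcript is nearly identical to Tubb2b in its coding part, fell by 0.38 ± 0.04 (SE; limma adjusted p = 0.00767), from 6.76 and 6.73 to 6.38 and 6.35. Its 3 probes ranged from -0.38 to -0.05, and cross-hybridisation between both tubulins was not tested. Ccl7, a monocyte chemokine encoded next to Ccl2, rose by 0.38 ± 0.06 (SE), from -1.11 and -1.05 to -0.66 and -0.74. The Tubb2a fall was a stable call, while Ccl7 lost its call without bFGF replicate 2.

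**Figure D3:**
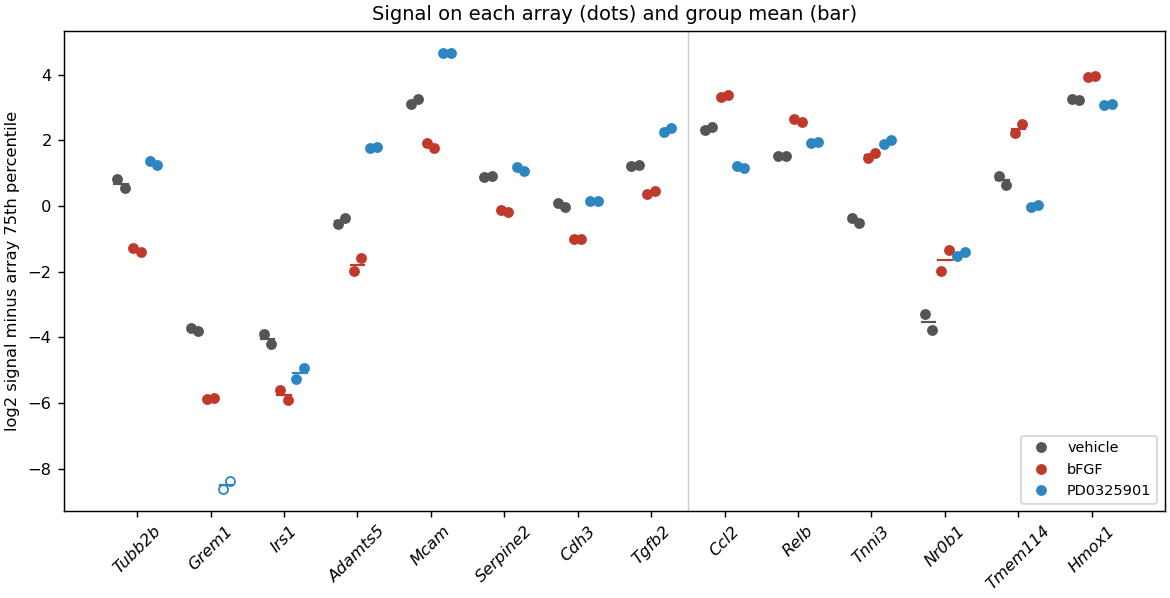
Dots give the log2 signal minus the array's 75th percentile on each array for 14 genes, with bars at the group means (2 arrays each); genes left of the line fell and genes right of it rose with bFGF. Open dots mark Grem1 on the PD0325901 arrays, where it was not well above background. In each of these genes the bFGF dots lie clear of the vehicle dots, from Tubb2b at -1.27 and -1.39 to Hmox1 at 3.93 and 3.94.

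Of the genes that build the FGF signal itself, 27 were tested, of which 8 were lower, 2 higher and 17 did not pass. The lower share of 8 in 27 stands against 10.4% of all genes. Their median difference was -0.11 (-0.11 after cyclic loess), beside -0.0029 for all genes tested. Among co-receptors, the glypican Gpc1, a heparan sulphate proteoglycan on the cell surface, fell from 4.11 and 4.03 with vehicle to 3.70 and 3.75 with bFGF, a difference of -0.35 ± 0.05 (SE). Gpc4, another glypican, fell from 4.73 and 4.70 to 4.44 and 4.48. Fgfrl1, an FGF receptor that lacks the kinase domain, fell from 1.37 and 1.37 to 1.13 and 1.06. Normexp gave -0.14 for Fgfrl1, which did not pass, against -0.28. These 3 were lower on both bFGF arrays and lost their call without bFGF replicate 2, where 1 member was higher and 0 were lower. The signalling receptors did not pass. Fgfr1 differed by -0.17 ± 0.09 (SE; limma adjusted p = 0.206; 95% interval -0.39 to 0.05), with signals of -1.16 and -1.30 against -1.41 and -1.38. Fgfr2 differed by -0.18 ± 0.25 (SE; limma adjusted p = 0.625), and its vehicle and bFGF arrays overlapped.

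Among ligands and their partners, Fgf11, a member of the family that stays inside the cell, rose by 0.56 ± 0.04 (SE; limma adjusted p = 0.00485), from -3.68 and -3.75 to -3.16 and -3.15. Klb, beta-Klotho, the co-receptor for the endocrine FGFs, rose from -4.83 and -4.99 to -3.97 and -3.95, a difference of 0.95 ± 0.11 (SE), and lost its call without bFGF replicate 2 (limma adjusted p = 0.051). Normexp gave 0.55 for Klb and 0.39 for Fgf11. Both lie among dim genes, where the median of all genes was also raised. The cells' own Fgf2 could be read under the rule of 4 arrays only. It gave -4.10 and -4.34 with vehicle and -3.99 and -4.13 with bFGF, a difference of 0.16 ± 0.10 (SE; limma adjusted p = 0.284).

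Genes that report ERK activity did not move together after 24 h. Over all 6 arrays 33.3% of those tested passed, against 23.2% of all genes. Of 24 tested, 3 were higher, 5 were lower and 16 did not pass, with a median difference of -0.0023 (-0.03 after cyclic loess). Without bFGF replicate 2, 1 was higher and 4 were lower. Dusp6, the phosphatase that switches off ERK and is itself an ERK target, was 4.71 and 4.86 with vehicle and 4.65 and 4.71 with bFGF. That difference of -0.11 ± 0.07 (SE; limma adjusted p = 0.296) has a 95% interval from -0.28 to 0.06, while PD0325901 changed the same gene by -6.07. Spry2, a feedback inhibitor of receptor signalling, differed by 0.02 ± 0.05 (SE; limma adjusted p = 0.767). Under the rule of 4 arrays, Etv5 differed by 0.06 ± 0.05 (SE; adjusted p = 0.454) and Spry4 by -0.46 ± 0.12 (SE; adjusted p = 0.0571).

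The AP-1 subunits split. Fos fell by 0.62 ± 0.05 (SE; limma adjusted p = 0.00466), from -0.67 and -0.59 to -1.25 and -1.24. Fosl1, which encodes the long-lived relative Fra-1, rose by 0.72 ± 0.06 (SE; limma adjusted p = 0.00516), from -1.53 and -1.50 to -0.87 and -0.71. Both were stable, and both had been lower with PD0325901 than with vehicle (-1.92 and -3.46). Other stable falls were those of Dusp1, a phosphatase of the stress kinases, at -0.58 ± 0.07 (SE), the G1 cyclin Ccnd1 at -0.55 ± 0.05 (SE), and the ETS factor Etv4 at -0.50 ± 0.05 (SE). Ccnd1 stood at -0.09 and -0.16 with vehicle, -0.71 and -0.64 with bFGF and -1.78 and -1.80 with PD0325901. So Ccnd1 was lower than vehicle under both agents, in comparisons that share the vehicle arrays. Egr1, an immediate-early zinc finger factor, rose by 0.23 ± 0.06 (SE; limma adjusted p = 0.0454) and lost its call in 8 of 16 other settings. Areg and Ereg, ligands of the EGF receptor, were above background on the 4 arrays only and rose by 0.75 ± 0.11 and 0.85 ± 0.16 (SE; limma adjusted p = 0.0152 and 0.0256). Both lie among dim genes, where the median of all genes was also raised. Of the 350 genes that the rule of 4 arrays added, 115 were higher and 10 lower.

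The ligands for which Sertoli cells are known did not move together. Of 19 niche ligands and related signals, 2 were higher, 3 were lower and 14 did not pass. The share passing was 26.3%, against 23.2% of all genes, and the median difference was -0.11, beside -0.0029 for all genes. Gdnf, which sustains spermatogonial stem cells, was -1.61 and -1.52 with vehicle and -1.40 and -1.42 with bFGF. Both bFGF arrays were higher, but the difference of 0.15 ± 0.06 (SE; limma adjusted p = 0.136; 95% interval -0.01 to 0.31) did not pass. Kitl, the ligand of the receptor Kit on differentiating spermatogonia, differed by 0.08 ± 0.04 (SE; limma adjusted p = 0.193). Tgfb2, the only stable gene of this list, was 1.22 and 1.24 with vehicle and 0.35 and 0.45 with bFGF, a fall of 0.83 ± 0.06 (SE; limma adjusted p = 0.00434). Cyp26b1, which degrades retinoic acid and so shields germ cells from it, rose from -1.31 and -1.33 to -0.96 and -0.81 (0.44 ± 0.08, SE), and lost its call without bFGF replicate 2.

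Of the Sertoli genes, 32 were tested, of which 8 were higher and 3 lower, with a median difference of 0.04 (0.11 after cyclic loess). The share passing was 34.4%, against 23.2% of all genes. Sox9, which directs Sertoli fate, did not pass (-0.11 ± 0.04, SE; limma adjusted p = 0.108), and neither did Amh, anti-Müllerian hormone, a product of immature Sertoli cells (0.16 ± 0.06, SE; limma adjusted p = 0.0944). The GATA factors went in opposite directions. Gata1 rose by 0.76 ± 0.05 (SE; limma adjusted p = 0.00368), from -0.94 and -0.99 to -0.25 and -0.16, while Gata4 fell by 0.43 ± 0.04 (SE; limma adjusted p = 0.00653), from -0.52 and -0.45 to -0.91 and -0.92. Averaging all probes of the gene gave -0.25 for Gata4. Eppin, a protease inhibitor of the male tract, rose most, from 1.09 and 1.05 to 1.94 and 2.06 (0.93 ± 0.06, SE). Krt18, a keratin of immature Sertoli cells, fell from 2.56 and 2.60 to 1.93 and 2.12 (-0.55 ± 0.08, SE). Espn, an actin bundler of the ectoplasmic specialisation, rose by 0.58 ± 0.09 (SE) and lost its call without bFGF replicate 2. There, 2 members of the list were higher and 2 were lower.

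In the BMP and TGF-beta family, which shapes matrix and cell identity through Smad proteins, 41 genes were tested, 4 of them higher, 12 lower and 25 not passing, beside 12.8% higher and 10.4% lower among all genes. The median difference was -0.09 (-0.04 after cyclic loess). Without bFGF replicate 2 there were 2 higher and 3 lower of 41, where 5.80% of all genes passed. Beside Tgfb2 and Grem1, the extracellular BMP modulator Bmper fell by 0.63 ± 0.04 (SE; limma adjusted p = 0.00384), from 2.65 and 2.59 to 2.01 and 1.97. Ccn1, a matricellular protein and a common target of TGF-beta and YAP, fell by 0.66 ± 0.04 (SE), from 4.41 and 4.45 to 3.78 and 3.75. Against these, the ligand Bmp6 rose from -1.003 and -1.15 to -0.43 and -0.46 (0.63 ± 0.07, SE), and Id4, an inhibitor of basic helix-loop-helix factors, rose from -0.08 and -0.13 to 0.49 and 0.61 (0.66 ± 0.06, SE). All of these were stable except Grem1, which was not among the genes tested on 6 arrays. The Smad target Id1 differed by -0.02 ± 0.11 (SE) and did not pass.

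Insulin and IGF signalling genes moved singly. Over all 6 arrays 31.0% of those tested passed, against 23.2% of all genes. Of 29 tested, 3 were higher and 6 lower, and 20 did not pass; without bFGF replicate 2, 1 was higher and 3 were lower. After Irs1 the largest fall was in Pik3r1, the regulatory subunit of PI3 kinase, from -1.12 and -1.11 to -1.57 and -1.63 (-0.49 ± 0.05, SE; limma adjusted p = 0.00639; -0.22 with all its probes averaged). Igfbp7, a secreted IGF-binding protein, fell from 6.23 and 6.21 to 5.78 and 5.85 (-0.40 ± 0.05, SE). Foxo1, the transcription factor that AKT holds out of the nucleus, rose from 1.28 and 1.21 to 1.63 and 1.61 (0.37 ± 0.04, SE). These were stable calls. The receptors themselves, Insr at 0.38 ± 0.17 and Igf1r at 0.01 ± 0.05 (SE), did not pass.

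Of 26 tubulins and microtubule-associated proteins tested, 9 were lower, 1 was higher and 16 did not pass, beside 10.4% lower among all genes, with a median difference of -0.10 (-0.07 after cyclic loess). Map2, a microtubule stabiliser, fell from -0.84 and -0.62 to -1.61 and -1.45 (-0.80 ± 0.09, SE; limma adjusted p = 0.00833). Mapre2, an end-binding protein that tracks growing microtubules, fell from 1.89 and 1.93 to 1.42 and 1.43 (-0.48 ± 0.04, SE). Tubb6 and Tubb3 fell by 0.30 ± 0.05 and 0.20 ± 0.04 (SE), the latter at -0.13 after cyclic loess, where it did not pass. After Tubb2b, the fall of Map2 was the next largest. Leaving out each array in turn gave 4 to 8 lower and 0 higher, fewest without bFGF replicate 2.

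Of 22 chemokines, cytokines and acute-phase genes tested, 15 were higher with bFGF, 0 were lower and 7 did not pass, beside 12.8% higher among all genes. The median difference was 0.33 (0.36 after cyclic loess). Leaving out each array in turn gave 6 to 12 higher and 0 lower, with 6 without bFGF replicate 2 and 9 without bFGF replicate 1 or vehicle replicate 1. The 11 members left out by the signal restriction (Il1b, Tnf and Csf2 among them) are not in these counts. Relb, a subunit of the non-canonical NF-kB dimer, stood at 1.52 and 1.52 with vehicle and 2.65 and 2.57 with bFGF. This is a difference of 1.09 ± 0.05 (SE; limma adjusted p = 0.00293), a 2.13-fold higher signal. Saa3, an acute-phase apolipoprotein, rose from -0.00 and 0.10 to 0.81 and 0.96 (0.84 ± 0.09, SE), and Vcam1, an adhesion molecule for leukocytes, from -1.58 and -1.51 to -0.88 and -0.68 (0.76 ± 0.09, SE). Both were stable. Cxcl1, a neutrophil chemokine, rose from -2.30 and -2.09 to -1.61 and -1.42 (0.69 ± 0.16, SE; limma adjusted p = 0.0389) and passed in 10 of 16 other settings. The NF-kB feedback inhibitor Tnfaip3 (-0.09 ± 0.05, SE) and the adhesion gene Icam1 (0.19 ± 0.08, SE) did not pass.

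Macrophages express many of these genes, so their markers were read on the same arrays. Of 12 macrophage genes tested, 1 was higher and 2 were lower, with a median difference of -0.21. The share passing was 25.0%, against 23.2% of all genes. Of the 12 differences, 9 were negative and 3 positive. Fcer1g, the member that passed as higher, went from -1.21 and -1.36 with vehicle to -0.89 and -0.77 with bFGF. The summed level of the markers was 3.91 and 3.78 with vehicle and 3.39 and 3.50 with bFGF, thus lower on both bFGF arrays. It adds linear signals, so Lyz2, the brightest member, weighs most in it and the sum is no separate reading. Lyz2, lysozyme, fell by 0.67 ± 0.08 (SE; limma adjusted p = 0.00904), from 3.26 and 3.08 to 2.42 and 2.58. Csf1r (-0.47 ± 0.26) and Adgre1 (-0.28 ± 0.12), defining receptors of the lineage, did not pass, and Itgam was above background on 1 of 6 arrays. In RNA from a whole culture, fewer cells of a type and less RNA per cell cannot be told apart.

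The promoters of the cytokine genes were read because NF-kB subunits were among the genes that rose. The 250 bases before the start in the RefSeq annotation (GRCm38.p6) were searched on both strands for an NF-kB pattern, GGG and TTTCC with any 2 bases between them. It was found in 5 of the 16 tested cytokine genes with a window, and in 1.65% of 27018 genes with one. The 5 were Cxcl1, Nfkb2 and Nfkbia, which rose, and Csf1 and Tnfaip3, which did not pass. Among the 10 risen cytokine genes with a window 3 held the pattern, so genes with and without it both rose. Ccl2 and Relb had no window and were not searched. Nfkb2, the precursor of the partner of Relb, rose by 0.58 ± 0.05 (SE), from 0.96 and 0.95 to 1.58 and 1.48, and Nfkbia, the inhibitor that retains NF-kB in the cytoplasm, by 0.28 ± 0.05 (SE). Nfkb2, Nfkbia and Csf1 were picked out after their values were seen. The windows of Cxcl1 and Nfkb2 are shown 5′ to 3′ along the gene's strand, with the matches in capitals; a match is a run of letters and no evidence of binding.
Cxcl1, chr5:90890995-90891244, plus strand: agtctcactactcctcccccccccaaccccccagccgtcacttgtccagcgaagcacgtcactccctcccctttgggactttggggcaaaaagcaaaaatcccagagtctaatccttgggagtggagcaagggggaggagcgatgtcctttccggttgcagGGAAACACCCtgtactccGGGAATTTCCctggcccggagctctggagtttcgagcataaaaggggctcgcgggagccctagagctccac
Nfkb2, chr19:46304487-46304736, plus strand: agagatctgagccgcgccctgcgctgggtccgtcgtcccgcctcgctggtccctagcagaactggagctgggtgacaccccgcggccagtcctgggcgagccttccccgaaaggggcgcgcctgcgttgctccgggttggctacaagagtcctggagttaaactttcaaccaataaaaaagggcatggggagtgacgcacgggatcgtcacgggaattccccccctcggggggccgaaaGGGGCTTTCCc
In the Cxcl1 window the matches begin 89 and 71 bases before the start, and in the Nfkb2 window the match begins 11 bases before it.

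Of 30 interferon-response genes tested, 12 were higher, 1 was lower and 17 did not pass, beside 12.8% higher among all genes, with a median difference of 0.31 (0.33 after cyclic loess). Fewer members passed when either bFGF array or vehicle replicate 1 was left out, as among all genes. Gbp3, an interferon-induced GTPase, rose from -1.74 and -1.58 to -0.98 and -0.75 (0.79 ± 0.12, SE; limma adjusted p = 0.0146), and Oasl2, of the oligoadenylate synthetase family, from 0.17 and 0.20 to 0.82 and 0.92 (0.68 ± 0.08, SE). Igtp, a GTPase that acts on pathogen vacuoles, rose from -0.73 and -0.63 to -0.14 and -0.06 (0.58 ± 0.07, SE). Ifit2, an RNA-binding effector, fell from -1.64 and -1.58 to -1.96 and -2.08 (-0.41 ± 0.06, SE; -0.27 with normexp). Each of these 4 lost its call without bFGF replicate 2, while its direction held in the other settings. Over those settings Gbp3 ran from 0.64 to 0.90, Oasl2 from 0.63 to 0.75, Igtp from 0.53 to 0.63 and Ifit2 from -0.47 to -0.27. On the PD0325901 arrays Gbp3 was higher still, at -0.14 and 0.11.

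The interferon-stimulated response element was searched as TTTC and TTTC with any 2 bases between them, on both strands of the same windows. It occurred in 13 of the 25 tested interferon genes with a window and in 3.46% of all genes with one. Among the 12 that rose, 5 held it, so genes with and without these letters both rose. Gbp3 and Igtp are shown as a risen gene with overlapping matches on the gene's strand and a risen gene with 1 match on the other strand, with the matches in capitals.
Gbp3, chr3:142559794-142560043, plus strand: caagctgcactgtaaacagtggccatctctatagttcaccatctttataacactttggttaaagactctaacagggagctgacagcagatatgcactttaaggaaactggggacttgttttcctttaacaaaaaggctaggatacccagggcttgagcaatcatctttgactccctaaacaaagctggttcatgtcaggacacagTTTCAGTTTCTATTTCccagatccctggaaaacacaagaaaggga
Igtp, chr11:58199306-58199555, plus strand: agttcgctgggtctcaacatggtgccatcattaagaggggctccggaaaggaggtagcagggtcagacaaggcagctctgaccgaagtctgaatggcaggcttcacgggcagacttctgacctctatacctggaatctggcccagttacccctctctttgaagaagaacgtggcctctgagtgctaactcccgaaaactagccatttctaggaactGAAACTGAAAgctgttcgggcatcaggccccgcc
The Gbp3 matches begin 45 and 39 bases before the start and the Igtp match 34 bases before it.

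Of 24 genes of cholesterol synthesis tested, 15 were lower, 0 were higher and 9 did not pass, beside 10.4% lower among all genes; cyclic loess and quantile scaling each gave 12 lower and 1 higher. The median difference was -0.31 (-0.27 after cyclic loess). The 15 falls lay within a narrow range, from -0.49 to -0.21 on the log2 scale. Fdps, which makes farnesyl diphosphate, stood at 4.47 and 4.53 with vehicle and 3.96 and 4.07 with bFGF, a difference of -0.49 ± 0.06 (SE; limma adjusted p = 0.0079). Dhcr7, which catalyses the last step to cholesterol, fell from 3.75 and 3.69 to 3.27 and 3.38 (-0.40 ± 0.05, SE), and Cyp51, the lanosterol demethylase, from 1.46 and 1.52 to 1.09 and 1.15 (-0.36 ± 0.05, SE). Lss, lanosterol synthase, fell from 1.43 and 1.48 to 1.07 and 1.10 (-0.37 ± 0.05, SE). Fdps, Dhcr7 and Cyp51 were stable. Without either bFGF replicate 1 or bFGF replicate 2, 5 of the 24 members were lower and 0 higher, and with the 4 arrays alone 9 and 0. On the PD0325901 arrays these genes were lower than with bFGF, Cyp51 at 0.28 and 0.22 and Fdps at 3.83 and 3.85, in a comparison that shares the vehicle arrays.

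Of 19 fatty acid genes tested, 10 were lower, 1 was higher and 8 did not pass, beside 10.4% lower among all genes, with a median difference of -0.22 (-0.19 after cyclic loess). Fads3, of the fatty acid desaturase family, fell from 3.70 and 3.78 to 3.25 and 3.28 (-0.47 ± 0.05, SE; limma adjusted p = 0.00608), a stable call. Fasn, fatty acid synthase, fell from 6.05 and 5.99 to 5.69 and 5.65 (-0.35 ± 0.04, SE; -0.23 with all its probes averaged), and Srebf1, the transcription factor SREBP-1 that drives the pathway, from 5.03 and 4.95 to 4.63 and 4.69 (-0.32 ± 0.05, SE). Acaca, the acetyl-CoA carboxylase that supplies malonyl-CoA, was the member that rose, from -4.22 and -4.13 to -3.76 and -3.54 (0.52 ± 0.09, SE; 0.22 with all its probes averaged), at a dim probe. Without bFGF replicate 2, 1 of 19 was lower and 0 higher, where 5.80% of all genes passed, and without bFGF replicate 1 or vehicle replicate 1, 2 and 5 were lower.

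Promoters of sterol genes often pair a site for SREBP with the CCAAT box bound by NF-Y. CCAAT, searched on both strands, occurred in 15 of the 16 tested cholesterol genes with a window, in all 10 of those that were lower, and in 37.5% of all genes with a window. The sterol element, searched as TCAC and CCAC with any 1 base between them, matched 1 of the 16 (Hmgcs1) and 1.23% of all genes. Among fatty acid genes 10 of 16 held CCAAT. The windows of Cyp51 and Dhcr7 show it at different distances from the start, in capitals.
Cyp51, chr5:4104698-4104947, minus strand: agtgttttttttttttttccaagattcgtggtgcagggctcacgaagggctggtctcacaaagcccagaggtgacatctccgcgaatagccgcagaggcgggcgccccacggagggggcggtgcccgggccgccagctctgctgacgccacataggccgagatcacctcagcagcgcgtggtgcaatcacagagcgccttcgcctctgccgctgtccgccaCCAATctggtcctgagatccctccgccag
Dhcr7, chr7:143829964-143830213, plus strand: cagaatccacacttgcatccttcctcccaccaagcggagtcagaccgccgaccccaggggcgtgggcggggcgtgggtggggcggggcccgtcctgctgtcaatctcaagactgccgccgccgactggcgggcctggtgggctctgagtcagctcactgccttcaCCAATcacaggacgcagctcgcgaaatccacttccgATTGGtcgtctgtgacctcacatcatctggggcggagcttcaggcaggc
The Cyp51 match begins 29 bases before the start, and those of Dhcr7 begin 85 and 49 bases before it.

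**Figure D4:**
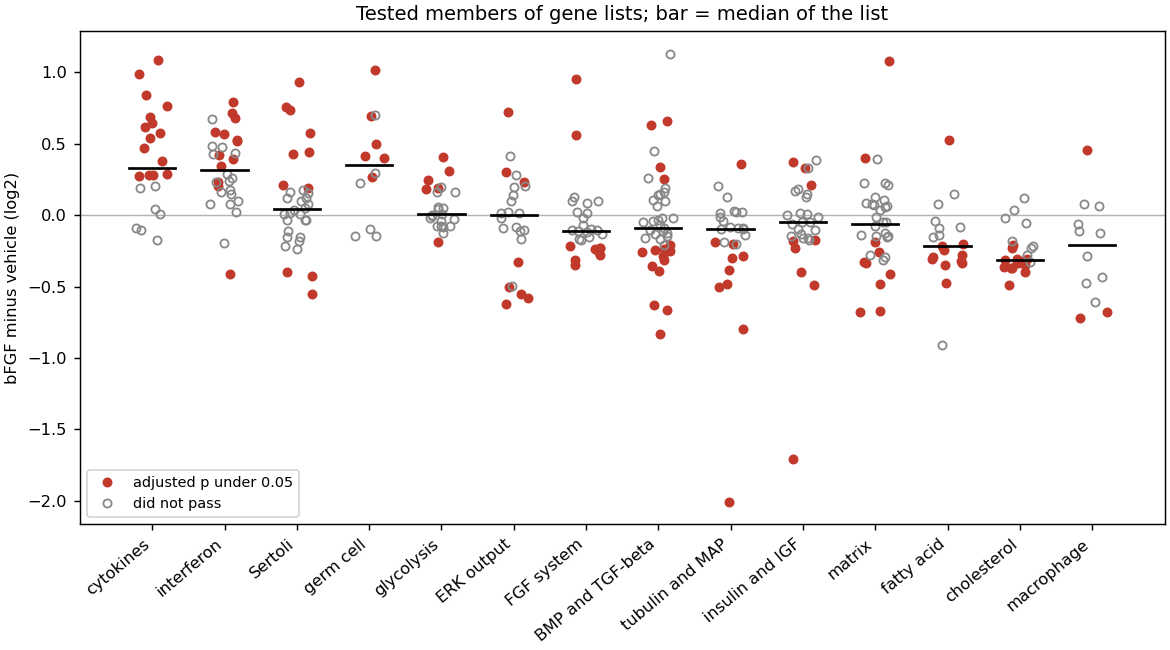
Each dot is the difference between bFGF and vehicle (log2) for 1 tested member of a gene list, filled where it passed at an adjusted p under 0.05; bars mark list medians. The cytokine and interferon bars lie at 0.33 and 0.31 and the cholesterol bar at -0.31, while Tubb2b (-2.01) and Irs1 (-1.70) stand far below the rest of their lists.

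Genes at the cell surface and in the matrix gave several of the clearest falls. The share passing was 40.9% of proteases and inhibitors, 20.0% of junction genes and 29.4% of matrix genes, against 23.2% of all genes. Of 22 proteases and inhibitors tested, 6 were lower and 3 higher; without bFGF replicate 2, these were 2 and 0. Adamts5, an aggrecan-cleaving protease, fell from -0.53 and -0.36 to -1.98 and -1.60 (-1.34 ± 0.14, SE; limma adjusted p = 0.00646), and on the PD0325901 arrays it stood above both, at 1.77 and 1.78. Serpine2, protease nexin-1, an inhibitor of thrombin and plasminogen activators, fell from 0.89 and 0.90 to -0.13 and -0.18 (-1.05 ± 0.05, SE; limma adjusted p = 0.00326). Of 25 junction genes, 3 were higher and 2 lower, and the 2 falls were stable. Cdh3, P-cadherin, fell from 0.09 and -0.04 to -1.004 and -1.007 (-1.03 ± 0.05, SE; limma adjusted p = 0.00326). Cldn3, a tight junction claudin known in the blood-testis barrier, fell from -0.48 and -0.55 to -1.23 and -1.22 (-0.71 ± 0.07, SE). The barrier claudin Cldn11 differed by 0.02 ± 0.08 (SE) and did not pass.

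Of 34 matrix genes tested, 8 were lower and 2 higher (median difference -0.06), and without bFGF replicate 2 there were 4 and 1. Fbln2 and Fbn1, a fibulin and a fibrillin of elastic fibres, fell by 0.67 ± 0.06 and 0.67 ± 0.08 (SE; limma adjusted p = 0.00519 and 0.00796). Fbln2 went from 5.35 and 5.22 to 4.58 and 4.64. Eln, elastin, the core of the same fibres, rose instead, from -3.44 and -3.64 to -2.62 and -2.30 (1.08 ± 0.13, SE; limma adjusted p = 0.00871), at a dim probe. Spp1, osteopontin, fell from 7.17 and 7.24 to 6.70 and 6.75 (-0.48 ± 0.05, SE). Thy1, a surface glycoprotein used as a fibroblast marker, fell from -1.16 and -1.44 to -2.40 and -2.23 (-1.02 ± 0.12, SE). The summed fibroblast markers were 4.71 and 4.71 with vehicle and 4.58 and 4.72 with bFGF, so the groups overlapped. Of the 10 markers 2 were lower, beside 10.4% lower among all genes. The part of fibroblasts in the matrix falls was not tested.

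The antioxidant and stress genes were mixed, with 6 of 25 higher and 5 lower (median difference 0.05), and without bFGF replicate 2 there were 2 and 2. Hmox1, heme oxygenase-1, rose from 3.24 and 3.22 to 3.93 and 3.94 (0.71 ± 0.04, SE; limma adjusted p = 0.00355), and Gclm, a subunit of the enzyme that starts glutathione synthesis, from -1.38 and -1.44 to -0.69 and -0.66 (0.74 ± 0.05, SE). Both are known targets of the factor NRF2, and the NRF2 target Nqo1 gave 0.31 ± 0.13 (SE) and did not pass. Txnrd1, of the same list, rose by 0.38 (limma adjusted p = 0.0222) and passed in 13 of 16 other settings. Gdf15, a stress cytokine, and Atf3, a stress transcription factor, fell by 0.46 ± 0.06 and 0.38 ± 0.04 (SE). The share passing was 44.0% of stress genes and 26.1% of glycolysis genes, against 23.2% of all genes. Among 23 glycolysis genes 5 were higher and 1 lower, and without bFGF replicate 2 there were 1 and 0. The glucose transporter Slc2a3 rose from 1.60 and 1.55 to 1.94 and 2.02 (0.40 ± 0.05, SE).

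Wnt genes, 29 tested, gave 5 higher and 8 lower, and without bFGF replicate 2 gave 2 and 1. The secreted Wnt antagonist Sfrp1 fell from 0.60 and 0.47 to -0.07 and 0.08 (-0.53 ± 0.07, SE; limma adjusted p = 0.011), while the antagonists Rnf43, a ligase that removes Frizzled receptors, and Wif1, a secreted inhibitor, rose by 0.70 ± 0.05 and 0.44 ± 0.05 (SE). Of 31 cell cycle genes, 5 were lower, 0 higher and 26 did not pass, a share passing of 16.1% against 23.2% of all genes. Without bFGF replicate 2, 1 was lower. Ccnb2, a mitotic cyclin, fell from 4.38 and 4.33 to 3.92 and 3.99 (-0.40 ± 0.05, SE; limma adjusted p = 0.00796). Among 15 retinoid genes 3 were higher and 2 lower, with Dhrs3, which returns retinal to retinol, up by 0.56 ± 0.06 (SE). The share passing was 33.3% of retinoid genes and 44.8% of Wnt genes, against 23.2% of all genes.

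Of 12 germ cell markers tested, 6 were higher, 0 were lower and 6 did not pass, beside 12.8% higher among all genes, with a median difference of 0.35 (0.32 after cyclic loess); without bFGF replicate 2, 1 was higher. Stra8, the meiotic entry gene that retinoic acid induces, rose from -1.67 and -1.84 to -0.97 and -0.51 (1.02 ± 0.16, SE; limma adjusted p = 0.0141). Ldhc, the germ cell lactate dehydrogenase, rose from 3.68 and 3.45 to 4.10 and 4.42 (0.69 ± 0.13, SE), and Ddx4, a germ cell RNA helicase, from -0.46 and -0.58 to -0.10 and 0.05 (0.50 ± 0.08, SE). The protamine Prm1 gave -0.15 ± 0.18 (SE) and did not pass. The summed germ cell level was 5.36 and 5.27 with vehicle, 5.45 and 5.63 with bFGF and 5.92 and 5.93 with PD0325901. It adds linear signals, so Uchl1 and Ldhc, the brightest members, weigh most in it and the sum is no separate reading. Uchl1 was lower on both bFGF arrays than on both vehicle arrays, and was highest on the PD0325901 arrays. The part of germ cells in the other results was not tested. Of the remaining marker lists, myoid genes gave 2 higher and 1 lower of 9, Leydig genes 1 lower of 8, endothelial genes 0 of 7 and rete genes 1 higher of 5. These counts stand beside 12.8% higher and 10.4% lower among all genes. The myoid gene Cnn1, calponin, rose by 0.82 ± 0.10 (SE), and Hsd17b3, which makes testosterone from androstenedione, fell by 0.92 ± 0.10 (SE). The summed myoid level was 6.13 and 6.23 against 6.17 and 6.31, and the Leydig level 4.83 and 4.88 against 4.80 and 4.97, so both overlapped between the groups.

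Among the 15 largest rises over all genes, 7 lay in the dimmest decile and 8 were stable. Tnni3, cardiac troponin I, was measured well above the dim range and rose from -0.38 and -0.52 to 1.48 and 1.61 (1.99 ± 0.08, SE; limma adjusted p = 0.00293), or 3.97-fold, and both of its probes rose (1.85 and 1.99). Tmem114, a claudin-like membrane protein, rose from 0.93 and 0.65 to 2.22 and 2.49 (1.56 ± 0.13, SE), while PD0325901 gave -0.04 and 0.04. Nr0b1, the orphan nuclear receptor DAX1 of the Sertoli and steroidogenic lineages, rose from -3.28 and -3.77 to -1.97 and -1.34 (1.87 ± 0.25, SE; limma adjusted p = 0.0107). Irx6, a homeobox factor, rose by 1.66 ± 0.11 (SE) and Btnl10, of the butyrophilin family, by 1.65 ± 0.12 (SE). Myl1, a myosin light chain, Ccrl2, a chemerin-binding receptor, and Dpf3, a chromatin remodelling subunit, rose by 1.55 ± 0.10, 1.47 ± 0.13 and 1.47 ± 0.11 (SE). With normexp these calls held at smaller sizes for Irx6 (1.02), Myl1 (0.74) and Ccrl2 (0.32). The largest value of all, that of Otos at 2.01 ± 0.41 (SE; limma adjusted p = 0.0275), came from vehicle arrays at -5.80 and -4.56, which differ from each other by more than 1 log2 unit. Its call was lost without bFGF replicate 2, and those of Ctsg, Adgrg5, Slc4a1, Olfr693, Psors1c2 and Alx4, all dim, were each lost in at least 1 of 16 other settings.

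Of the 15 largest falls, 12 were stable and 7 lay in the dimmest decile. Mcam, the adhesion molecule CD146, was the brightest, at 3.099 and 3.26 with vehicle, 1.91 and 1.77 with bFGF and 4.65 and 4.65 with PD0325901 (bFGF minus vehicle -1.34 ± 0.07, SE; limma adjusted p = 0.00334). So Mcam lay below vehicle with bFGF and above it with the MEK inhibitor, as Tubb2b, Adamts5 and Tgfb2 did, in comparisons that share the vehicle arrays. Nefl, the neurofilament light chain, fell from 0.30 and 0.28 to -0.88 and -0.80 (-1.13 ± 0.05, SE; limma adjusted p = 0.00293) and was lower still with PD0325901, at -1.79 and -1.78. Tnmd, tenomodulin, a membrane protein of tendon, fell from -0.67 and -0.82 to -1.81 and -1.89 (-1.11 ± 0.07, SE), and Bmp8b, a BMP known from germ cell development, from -1.55 and -1.61 to -2.68 and -2.67 (-1.09 ± 0.04, SE). St14, the membrane protease matriptase, fell by 1.08 ± 0.10 (SE). The size of some stable falls depended on the setting. Over the settings Cyp2j11 ran from -1.74 to -0.43, Plcxd1 from -1.86 to -0.70 and C1ql3 from -1.38 to -0.55. Mcam ran from -1.43 to -1.26 and Nefl from -1.17 to -1.08. The dim genes Slitrk4, Clec2d and Gdf6 each lost their call in at least 1 of 16 other settings.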

How the data were processed

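Total RNA (0.4 µg) was labelled with Cy3, per the labels' protocols. The authors deposited 1-colour Agilent spot intensity, background-subtracted but not normalized between arrays, per the file headers (Feature Extraction 9.5.3.1; 9.5 per the submitters' processing notes). The deposited log2 table, centred per probe, served as an alternative.

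From the intensity, log2(gProcessedSignal) minus each array's 75th percentile of non-control spots was taken. Flagged spots were left out, and no spot was saturated. Probes well above background on all 6 arrays were named through RefSeq accessions (GRCm38.p6), which named 56.8% of probes, and the brightest stood for its gene. limma 3.58.1 in R 4.3.3 was fitted over 6 arrays with 3 residual degrees of freedom and tested on simulated data. The number of arrays limits the precision. Normexp was run on the median spot signal, as the files used hold no mean signal column.

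Named genes were the 15 largest rises and 15 largest falls that passed with arrays that did not overlap and probes of 1 sign, up to 5 passing members a list and direction, 15 reference genes, and Grem1, Tubb2b, Irs1, Ccl2 and their relatives. Members added for contrast, and any other gene named, were chosen after their values were seen. Members and lists were chosen with earlier results of these data known. The slide could not be fitted as a block.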

Additional observations from a re-analysis of the deposited data

How the results depend on the processing

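Under each scaling tried (quantile, median, normexp, the deposited table), between 1372 and 1666 genes were higher and between 949 and 1283 lower, against 1572 and 1283. Cyclic loess, chosen after the data were seen, gave 1387 and 1036. Restricting to genes with a mean at or above the 75th percentile gave 728 higher and 1391 lower of 6659, so the split turned towards lower. With all probes, named or not, 2564 and 1931 of 25441 passed. The 4 bFGF and vehicle arrays alone gave 847 and 566. Leaving out each array in turn gave 423 to 1306 higher and 292 to 1056 lower, lowest without bFGF replicate 2. Averaging the probes of a gene turned Rxra from -0.23 to 0.087. The replicate numbers did not pair the arrays (r of deviations -0.12 between vehicle and bFGF); the replicate block gave 1191 and 876, and the crossed pairing, added later, 1507 and 1007. Requiring signal above background in 1 group only gave 1802 and 1038, and no filter 1873 and 1643. Low signal limits the genes of the dimmest decile.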
